A study of Canis lupus familiaris with 4 samples.

Results

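Chromosome 9 of the dog carried 3560 of the 59081 ATAC-seq peaks in this series, and all 3560 are described here. ATAC-seq marks accessible chromatin: the transposase Tn5 cuts and tags DNA that is not covered by nucleosomes or other proteins, and a peak is a place where such cuts pile up. The chromosome was selected on its number of peaks per Mb, a measured value, with the folds reported for it already known. Every peak on it passed the filter on low counts and was tested.

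The cells were MDCKII, titled wt, an established epithelial line from dog kidney that forms polarised monolayers. One group, called mature, was grown for 7 d to full maturity (n = 2 libraries, A and B). The other, called reseeded, was likewise kept for 7 d, then detached and plated again for 2 h (n = 2 libraries, A and B). Both groups are the same line in the same medium, and the question is which accessible regions differ between the established monolayer and cells that have just been replated. Whether A and B were separate cultures is not stated in the labels, so the p-values reflect how far A and B differ, which can be technical spread. The sample titles open with one number in the mature and another in the reseeded group, and any batch behind it and the reseeding cannot be told apart.

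Accessible sites are mostly promoters and enhancers, the stretches of DNA that start and tune transcription, and they crowd together where genes are dense. When an epithelial monolayer is detached, cells lose their junctions with neighbours and their grip on the matrix and then spread again, and such a change of state is known to open some regulatory sites and close others. Dog chromosome 9 corresponds largely to parts of human chromosomes 17 and 9. The RefSeq annotation of another dog assembly, UU_Cfam_GSD_1.0, places on it SOX9, a transcription factor of cartilage and sex determination, ITGB4, an integrin of hemidesmosomes, ABL1, a tyrosine kinase, and KRT14 and KRT17, keratins of stratified epithelia. As the peaks are on CanFam3.1, no peak was assigned to a gene, and sequence under the peaks is not analysed here.

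The 3560 peaks lay within 61.1 Mb, which is 58.3 peaks per Mb. The next chromosomes in this order were 20, with 44.5 peaks per Mb, and 17, with 40.8, and the median over the other 37 numbered chromosomes was 24. These densities chose the chromosome and are given as a description. Spacing was short: the median distance between the starts of adjacent peaks was 6430 bp, against 6341 bp on chromosome 20 and a median of 9800 bp over the other numbered chromosomes. A peak on chromosome 9 had a median of 72 other peaks within 500 kb on either side, and a peak on the other numbered chromosomes 44. The peaks did not cover the chromosome evenly. A stretch of 2.17 Mb without a peak lay between chr9:27852274-27852774 and chr9:30025100-30025600 (CanFam3.1), whereas the next longest gap was 0.69 Mb. Of the other 38 chromosomes, 27 had a longer gap than 2.17 Mb.

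Total counts in peaks over the whole genome were 8759513 in mature library A, 6253706 in mature library B, 16906566 in reseeded library A and 24015663 in reseeded library B. Below, values of a pair of libraries are given with A first and B second. Over the peaks of chromosome 9, which are not independent replicates, log2(CPM + 0.5) correlated at 0.976 between the mature libraries, at 0.992 between the reseeded libraries and at 0.434 to 0.44 between groups. CPM here are the counts divided by the library total and scaled to 1e+06, after TMM scaling, which sets the libraries level on the bulk of all peaks. A fold is therefore relative to the other peaks of the genome, and a fold in bulk cells cannot tell a site open in fewer cells from a site less open in each cell.

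As a whole, chromosome 9 took a smaller share of the accessible signal after reseeding. Its peaks held 7.253% and 7.339% of all counts in the mature pair, and 6.465% and 6.507% in the reseeded pair. The groups did not overlap, and the libraries of a group lay much closer to each other than to the other group. On the scale of chromosome totals the log2 fold was -0.211 (SE 0.0055, adjusted p = 4.13e-26 by edgeR's quasi-likelihood test over 39 chromosomes). At this depth nearly every chromosome total was called (87.2%, with 43.6% called lower), and the smallest called change was 0.021 on the log2 scale, so the size says more than the call. The total of chromosome 9 ranked 2 from the bottom among the 38 numbered chromosomes, after chromosome 20 at -0.222. Totals of the other numbered chromosomes ran from -0.222 to 0.338.

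**Figure D1:**
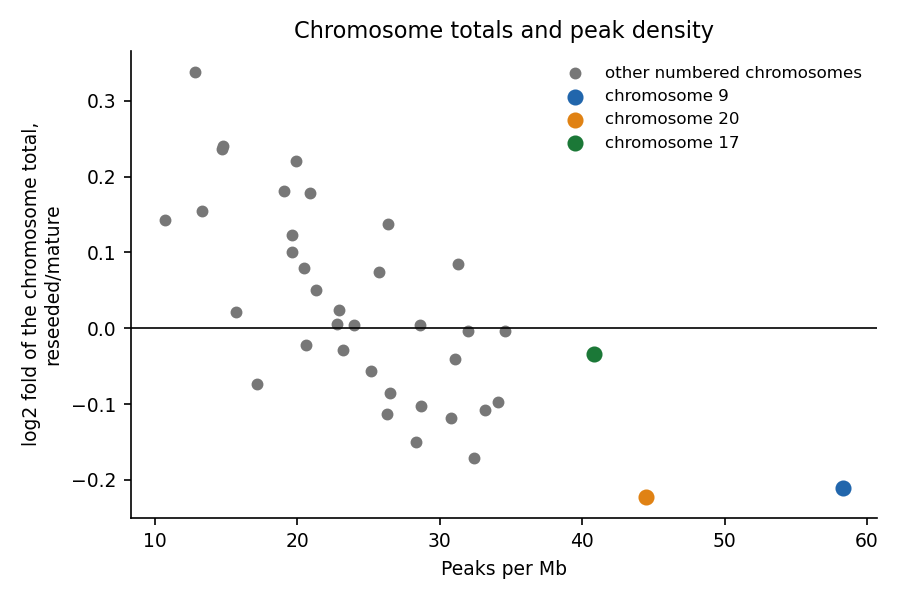
Log2 fold of each numbered chromosome's total count (reseeded over mature, vertical axis) against its peaks per Mb (horizontal axis), 1 point per chromosome. Chromosome 9 is farthest to the right at 58.3 peaks per Mb with a log2 fold of -0.211, near chromosome 20 at -0.222, whereas chromosome 17 with 40.8 peaks per Mb is at -0.034.

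Chromosome 9 was also set against chromosomes 20 and 17, the next densest in peaks. The log2 ratio of its total to that of chromosome 20 was 0.472 and 0.499 in the mature pair and 0.49 and 0.502 in the reseeded pair, with overlapping groups. Its log2 ratio to chromosome 17 was 0.425 and 0.432 in the mature libraries and 0.244 and 0.258 in the reseeded libraries, a difference of -0.177. Against all other numbered chromosomes together the log2 ratio went from -3.639 and -3.619 to -3.824 and -3.814, a difference of -0.19. In these last 2 ratios the groups were separate. By exact 2-sided permutation tests over libraries, p was 0.333 against the other numbered chromosomes and against chromosome 17, the smallest that 2 libraries against 2 allow, and 0.667 against chromosome 20 (0.5, 0.5 and 0.667 after Benjamini-Hochberg adjustment over 3 tests). This design therefore cannot pass a threshold of 0.05 by such a test.

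Peak by peak, more peaks of chromosome 9 were called lower than higher, mainly through changes of less than 2-fold. At an adjusted p under 0.05 in edgeR's quasi-likelihood test over all peaks, 3022 of its peaks (84.9%) were called, close to the 84.1% of all tested peaks. Of these, 1851 (52.0%) were lower after reseeding and 1171 (32.9%) higher, where all tested peaks gave 41.8% lower and 42.3% higher. Lower by less than 2-fold were 1141 peaks (32.1%, against 26.4% on the other numbered chromosomes), and higher by less than 2-fold 507 (14.2% against 15.6%). Small losses thus outnumbered small gains in both sets, and chromosome 9 also differed in changes of 2-fold or more. Losses of 2-fold or more were found at 710 peaks (19.9%, against 15.0% of all tested peaks) and gains of that size at 664 (18.7%, against 26.9%). Losses of at least 4-fold numbered 293 (8.23%, against 6.04%) and gains of at least 4-fold 202 (5.67%, against 10.1%). The share of peaks at least 2-fold lower was the highest of the 38 numbered chromosomes, followed by chromosomes 18 and 38, both at 19.5%. Without the step from 37 to 38 Mb this share was 19.0%, below both of them, and chromosome X had 20.3%. The share at least 2-fold higher was the lowest but for chromosome 20 at 18.4%. Under loess offsets, which also moved the median of all peaks from -0.009 to -0.113, gains of 2-fold or more numbered 455 and losses 734, so 38.3% of such peaks were higher in place of 48.3%. The order of gains and losses of this size turned under upper-quartile factors (689 gains, 675 losses) and library size alone (689 gains, 674 losses).

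The folds of chromosome 9 lay lower than those of the other numbered chromosomes pooled, as did those of chromosome 20. Its median log2 fold was -0.282, against 0.024 on the other numbered chromosomes and -0.009 over all tested peaks, and 60.3% of its peaks had a negative fold, against 49.3%. On chromosome 20 the median was lower still, -0.314, with 62.5% of peaks negative, and on chromosome 18 it was -0.25. The middle of the distribution ran from -0.82 to 0.67 (quartiles), against -0.61 to 1.13 elsewhere. The gap between the medians of chromosome 9 and the others, -0.306, was -0.168 under loess offsets. Scalings by one factor per library shift both medians alike and do not bear on it. Taken for each mature library against each reseeded library, the median log2 ratio of CPM + 0.5 was -0.281 to -0.266 in the 4 pairs, with an SD of 0.0077.

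**Figure D2:**
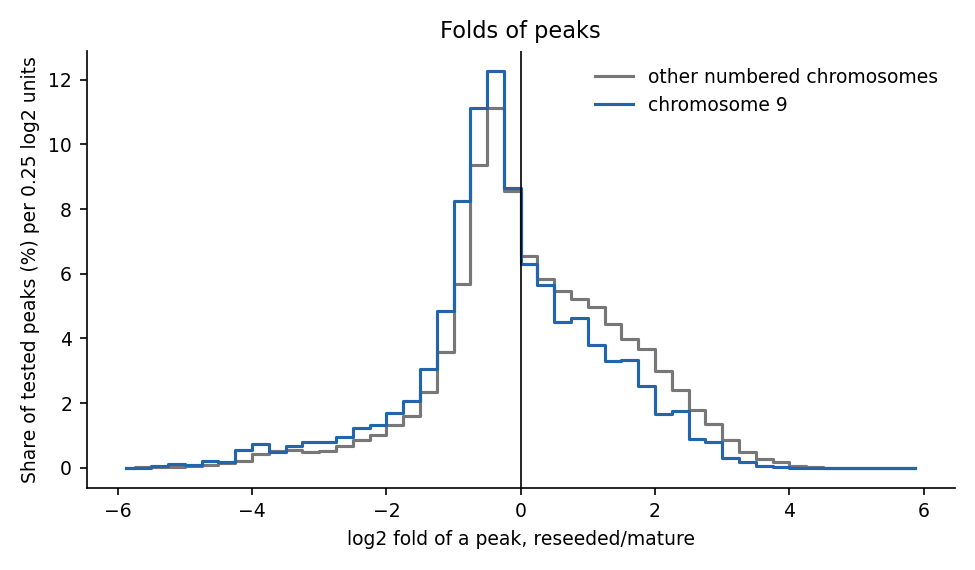
Share of tested peaks (vertical axis, %) in steps of 0.25 log2 units of the fold, reseeded over mature (horizontal axis), for chromosome 9 and the other numbered chromosomes. The curve of chromosome 9 is higher on the left, where 52.0% of its peaks were called lower, and lower on the right between folds of 0 and 4 log2 units.

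Levels showed the difference on the mature side. The median peak of chromosome 9 had 14.7 and 15.7 CPM in the mature pair and 13.1 and 13.0 CPM in the reseeded pair. On the other numbered chromosomes the medians were 12.1, 12.5, 12.8 and 12.8 CPM in that order. The peaks of chromosome 9 thus had higher levels than those elsewhere in the mature libraries and nearly equal levels in the reseeded ones. Chromosome 20 was alike, with medians of 15.0 and 15.2 CPM in the mature pair and 13.3 CPM in each reseeded library. Peaks under 5 CPM in the mature group made up 12.2% of chromosome 9 (435 peaks) and 20.2% elsewhere, whereas peaks under 5 CPM in the reseeded group made up 10.4% (371 peaks) and 7.81%. Among the strongest 10% of all peaks, those of at least 33.0 CPM averaged over the groups, chromosome 9 had 485 (13.6% of its peaks, against 9.84% elsewhere). These strong peaks had folds like those on other chromosomes, with a median log2 fold of -0.37 in both sets and 67.2% and 67.1% called lower.

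In steps of 1 Mb along the chromosome, lower summed counts were spread over long stretches. Peaks fell in 60 steps, each with at least 7 and at most 129 peaks (median 55, against 26 on the other numbered chromosomes), and the steps from 28 to 30 Mb held none. By edgeR's quasi-likelihood test on summed counts, with TMM scaling over all windows of the genome, 50 of the 60 steps were called (83.3%, against 86.9% of all tested windows). Of them 40 were lower (66.7%, against 42.6%) and 10 higher (16.7%, against 44.3%). The log2 folds of summed counts ran from -0.81 to 0.91 with a median of -0.19, and under this scaling no step changed by 2-fold. The highest of them, 0.91, was 1.02 under library size alone. The split depends on the scaling. Library size alone, which moved the median of all windows from 0.02 to 0.13, gave 31 lower and 21 higher steps, and the factors of the fit to single peaks gave 31 lower and 17 higher. Called alike under all 4 scalings tried were 31 of the 40 lower steps and 10 of the 10 higher steps.

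**Figure D3:**
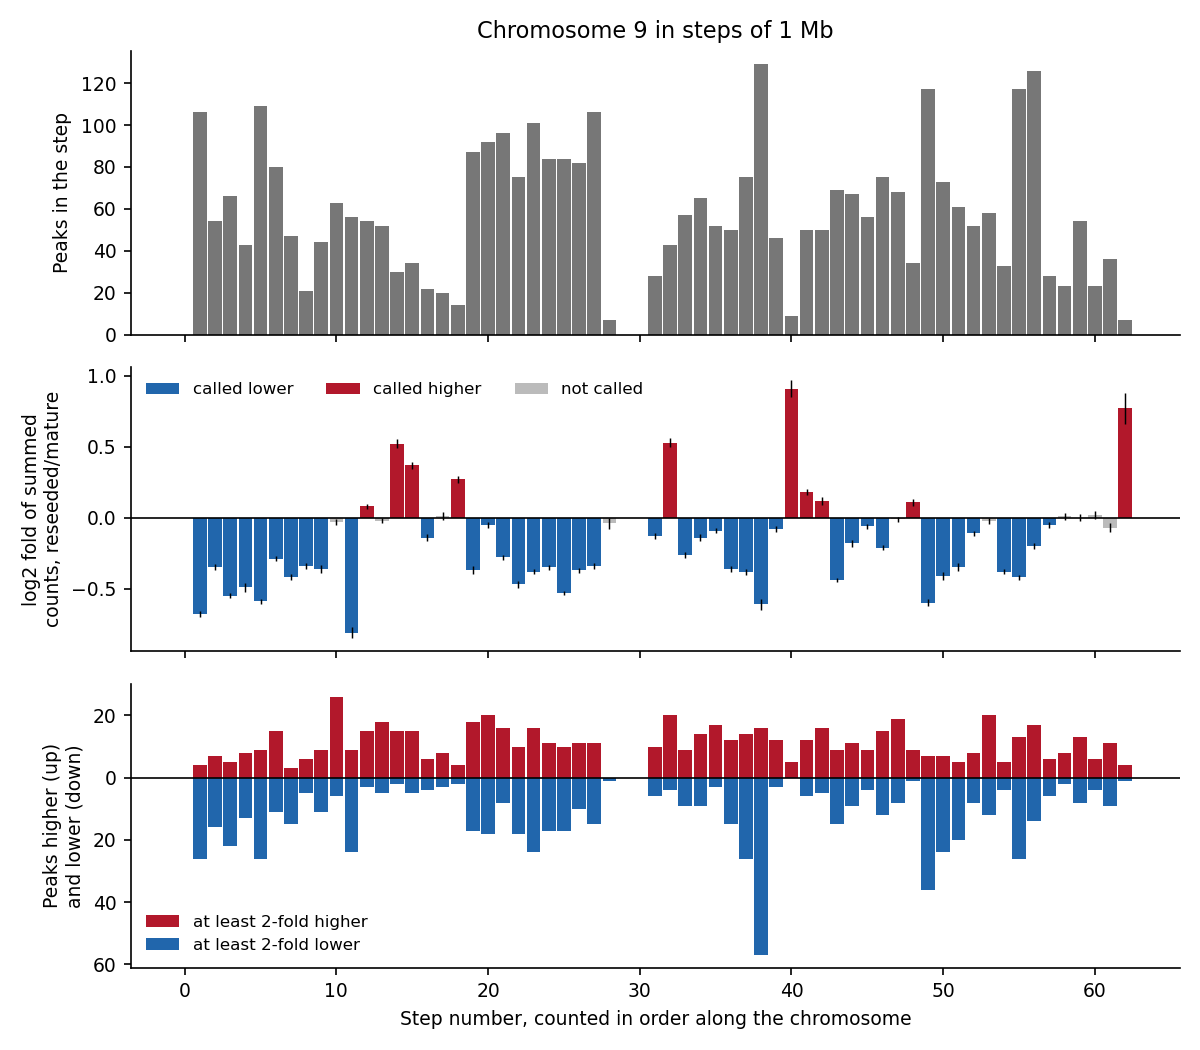
Chromosome 9 in 1 Mb steps in order along the chromosome (horizontal axis): number of peaks (top), log2 fold of the summed counts, reseeded over mature, with its SE (middle), and number of peaks at least 2-fold higher (up) or lower (down) (bottom). Bars below 0 fill the first 9 steps and steps 19 to 27, and the tallest downward bar, 57 peaks, is in step 38.

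Lower steps ran in series. The first 9 Mb formed one such series of 9 steps with 570 peaks, of which 145 lost and 66 gained 2-fold or more, and its steps had log2 folds of -0.68 to -0.29. All 9 were lower under the 4 scalings. From 18 to 27 Mb another 9 steps in a row were called lower, with 807 peaks (144 lower and 123 higher by at least 2-fold), and 8 of them were lower under the 4 scalings. Shorter series ran from 32 to 39 Mb (7 steps, 4 of them under the 4 scalings), 42 to 46 Mb (4 steps, 3), 48 to 52 Mb (4 steps, 3) and 53 to 57 Mb (4 steps, 3). The series from 48 to 52 Mb had the most one-sided counts of the shorter ones. There 88 of 303 peaks were down and 27 up by 2-fold or more. From 32 to 39 Mb 122 of 474 peaks were down and 94 up, and from 53 to 57 Mb 50 of 304 and 41. From 42 to 46 Mb gains of this size outnumbered losses, with 44 of 267 peaks up and 40 down.

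The steps with the largest falls in summed counts were from 10 to 11 Mb, 0 to 1 Mb, 37 to 38 Mb and 48 to 49 Mb. From 10 to 11 Mb the sum went from 1503 and 1655 CPM in the mature pair to 898.7 and 898.3 CPM in the reseeded pair, a log2 fold of -0.81 with an SE of 0.04 and an adjusted p of 1.97e-06. The 2 mature libraries lay well above the 2 reseeded ones but differed from each other more than the reseeded ones did. Of its 56 peaks, 24 were at least 2-fold lower, 19 of them at least 4-fold, and 9 were up by 2-fold or more. The first Mb went from 2944 and 3041 CPM to 1850 and 1886 CPM, a log2 fold of -0.68 (SE 0.023), with 26 of 106 peaks at least 2-fold lower and 4 higher. From 48 to 49 Mb the sum went from 2612 and 2741 CPM to 1760 CPM in each reseeded library, a log2 fold of -0.60 (SE 0.025), with 36 of 117 peaks at least 2-fold lower and 7 higher. In each of these steps the groups were far apart relative to the spread within them.

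The step from 37 to 38 Mb held the most peaks of the chromosome, 129, and the most losses. Its sum went from 3912 and 4267 CPM in the mature pair to 2691 and 2677 CPM in the reseeded pair, a log2 fold of -0.61 (SE 0.039). At least 2-fold lower were 57 of its peaks, 37 of them at least 4-fold, and 16 were at least 2-fold higher. Most losses sat in 2 places. From 37.4 to 37.5 Mb 26 of 36 peaks were at least 2-fold lower (median log2 fold -2.06), from 37.5 to 37.6 Mb 16 of 27 (median -1.23), and from 37.9 Mb to the end of the step 9 of 14 (median -2.03). Each other 0.1 Mb of the step held at most 3 peaks that were at least 2-fold lower, and from 37.1 to 37.2 Mb gains of that size were 4 of 10 peaks and losses 1. From 37.9 Mb on, mature library B exceeded mature library A by a median of 0.52 on the log2 scale, against 0.17 and 0.06 in the 0.1 Mb steps from 37.4 and 37.5 Mb, and the part of that difference in the result was not tested. Without the whole step, 653 of 3431 peaks of the chromosome (19.0%) were at least 2-fold lower, the median log2 fold was -0.273, and 256 peaks (7.46%) were at least 4-fold lower.

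**Figure D4:**
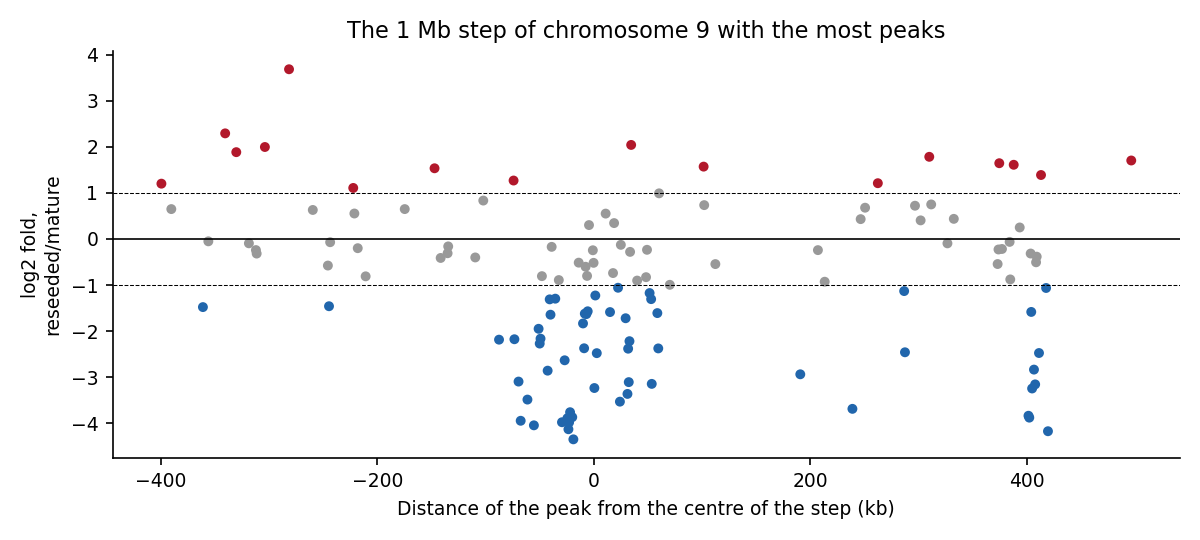
Log2 fold of each of the 129 peaks in the step with the most peaks, reseeded over mature (vertical axis), against its distance in kb from the centre of the step (horizontal axis). Blue points (at least 2-fold lower) gather around the centre and again towards the right end, where 26 of 36, 16 of 27 and 9 of 14 peaks fell, and red points (at least 2-fold higher) are scattered over the step.

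Higher steps were poorer in peaks. The 10 steps called higher had a median of 34 peaks (7 to 54), with 115 of their 325 peaks at least 2-fold higher (35.4%) and 29 lower (8.92%). The 40 steps called lower had a median of 68 peaks (21 to 129), with 420 of 2831 at least 2-fold higher (14.8%) and 623 lower (22%). The step from 39 to 40 Mb, with 9 peaks, came directly after the lower series from 32 to 39 Mb. Its sum went from 76.42 and 87.15 CPM to 150.5 and 153.3 CPM. The log2 fold was 0.91 with an SE of 0.059 and an adjusted p of 6.95e-06 by the same quasi-likelihood test. Of its peaks 5 gained and 0 lost 2-fold or more. The 7 peaks after 61 Mb, at the very end, went from 43.97 and 60.24 CPM to 86.54 and 87.86 CPM in sum, a log2 fold of 0.77 (SE 0.11), with mature library B well above mature library A. From 31 to 32 Mb (43 peaks) and from 13 to 14 Mb (30 peaks) the log2 folds were 0.53 (SE 0.03) and 0.52 (SE 0.032), with 20 and 15 peaks at least 2-fold higher and 4 and 2 lower. The 7 peaks from 27 to 28 Mb, the last before the long gap, summed to 118.5 and 118.3 CPM in the mature and 114.9 and 115.4 CPM in the reseeded libraries, a log2 fold of -0.04 that was not called. Over the 60 steps, Spearman's rho between the number of peaks and the log2 fold was -0.619 and Pearson's r -0.615. These steps share the 4 libraries and both measures come from one set of peaks, so the relation is a description. On the other 37 numbered chromosomes rho ran from -0.611 to 0.256, with a median of -0.255.

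Sum and typical peak did not always point the same way. Among the 60 steps, gains of 2-fold or more outnumbered losses of that size in 35, losses led in 22, and 3 were level. Such an excess of gains was also found in steps called lower, with 17 against 3 from 34 to 35 Mb. From 38 to 39 Mb the numbers were 12 and 3. Over the 40 lower steps together losses led, with 623 against 420. A lower sum in a step thus need not mean that losses were the more frequent. In 3 called steps the sum was lower while the median peak was higher. From 7 to 8 Mb the median log2 fold of 21 peaks was 0.61 and that of the sum -0.34, from 30 to 31 Mb the values were 0.44 and -0.13, and from 34 to 35 Mb 0.18 and -0.09.

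The 2 ends of the chromosome differed. In the first 3 Mb, 64 of 226 peaks (28.3%) lost and 16 (7.08%) gained 2-fold or more, with a median log2 fold of -0.56. In the last 3 Mb, 22 of 120 peaks (18.3%) lost and 34 (28.3%) gained as much, with a median of 0.27. Peaks between the ends had a median of -0.27. No test of this difference was made.

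Local crowding went with the direction of change within the chromosome, as among the pooled peaks of the other numbered chromosomes. Of the 115 peaks of chromosome 9 with fewer than 25 others within 500 kb, 37.4% gained and 12.2% lost 2-fold or more. Of the 743 peaks with 100 or more such neighbours, 10.2% gained and 23.6% lost as much. On the other numbered chromosomes these shares were 36.6% and 12% in the sparse class and 11.4% and 18.4% in the crowded class. Chromosome 17 had the opposite order of losses. There 22.2% gained and 29.9% lost 2-fold or more in the sparse class (144 peaks), and 17.1% gained and 17.1% lost as much in the crowded class (362 peaks). In the class of 50 to 99 neighbours, the largest of chromosome 9 with 2030 peaks, 18.1% were higher and 19.7% lower, against 20.8% and 17.5% elsewhere, and the median log2 folds were -0.30 and -0.18. In the class of 25 to 49 neighbours 26.3% of 672 peaks were higher and 18.2% lower, against 31.9% and 12.4%. In both middle classes chromosome 9 thus had fewer gains and more losses than the other chromosomes pooled. So did chromosome 20 in the class of 50 to 99, with 14.2% higher and 18.9% lower, and in the crowded class, with 7.14% and 21.9%. In the class of 25 to 49 chromosome 20 had 30.8% higher and 12.8% lower, near the pooled others. These differences were not tested. In the crowded class chromosome 9 had more losses than the pooled others, but without the step from 37 to 38 Mb these were 19.2% of 614 peaks. Peaks with 100 or more neighbours made up 20.9% of chromosome 9 and 5.43% of the others. Counted within 1 Mb on either side, the most crowded class of chromosome 9 (205 peaks) had 18.5% lower, and the sparsest (85 peaks) 23.5%, so the order of losses did not hold at that distance.

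Peaks of chromosome 9 were also grouped by the distance to their nearest neighbour, and losses were more frequent the closer that neighbour was, apart from the 2 widest classes, which were nearly level. The 867 peaks of chromosome 9 with another peak within 1 kb, which may be parts of one wide accessible site, were at least 2-fold lower in 28.0% and higher in 9.69%, against 18.5% and 14.1% on the other numbered chromosomes. For the 1430 peaks whose nearest neighbour was 1 to 5 kb away the shares were 21.8% and 16.3%, against 15.0% and 26.5%. From 5 to 20 kb they were 12.3% and 25.3%, against 12.7% and 33.6%. The 283 peaks with no other peak within 20 kb were at least 2-fold lower in 12% and higher in 35.0%, close to 11.7% and 37.8% elsewhere. Lone peaks of chromosome 9 were therefore near those of other chromosomes, and the excess of losses lay among peaks with a neighbour within 5 kb.

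Neighbouring peaks shared their direction about as often as elsewhere. Of 500 adjacent pairs up to 1 kb apart 74.8% had folds of one sign, against 72.3% on the other numbered chromosomes, and of 1065 pairs 1 to 5 kb apart 59.8%, against 60.2%. What differed was which direction pairs shared. Up to 1 kb, both peaks lost 2-fold or more in 80 of the 500 pairs and gained as much in 19, against 590 and 409 of 6115 elsewhere. From 1 to 5 kb the numbers were 102 and 36 of 1065, against 685 and 1250 of 13514. In 43 of the 1065 pairs 1 to 5 kb apart the peaks moved by at least 2-fold in opposite directions, against 597 of 13514 elsewhere.

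Losses formed unbroken runs, and gains formed none by the same rule. A run was a series of 5 or more adjacent peaks with steps of up to 10 kb, each of them called and at least 2-fold different in one direction. Chromosome 9 held 10 of the 72 runs of lower peaks in the genome (13.9%, with 6.03% of all peaks), and 0 of the 22 runs of higher peaks. It also held 710 of the 8887 peaks at least 2-fold lower. A run needs close neighbours, and the chromosome was selected for its density of peaks. The part of that density in the number of runs was not tested. The 10 runs contained 70 of its 710 peaks at least 2-fold lower (9.86%), so most lost peaks stood outside them, and the other 3490 peaks were at least 2-fold lower in 18.3% with a median log2 fold of -0.263. Among the other chromosomes the most runs of lower peaks were 11, on chromosome X. Runs of higher peaks were found on 17 of the 39 chromosomes, with at most 2 on any one of them.

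The run of most peaks was chr9:10356340-10371130, with 13 peaks in 14.8 kb. Its median peak had 21.1 and 30.9 CPM in the mature pair and 3.68 and 4.51 CPM in the reseeded pair, and its log2 folds ran from -4.02 to -1.49. Mature library B was above mature library A, with a median log2 ratio of 0.42, yet both were several times the reseeded level. Just before it, chr9:10346414-10351467 held 5 lower peaks with a median of 26.9 and 27.4 CPM in the mature libraries and 1.87 and 1.72 CPM in the reseeded libraries, and here the mature libraries were close. Between these 2 runs lay one of the strongest peaks of the chromosome, which fell by less than 2-fold and is described with the strong peaks.

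Runs of 8 peaks followed at 3 places. At chr9:638392-643877, within the first Mb, the median peak went from 36.6 and 33.8 CPM in the mature to 4.67 and 5.78 CPM in the reseeded libraries over 5.49 kb. At chr9:37470426-37481462 it went from 13.6 and 17.6 CPM to 0.963 and 0.861 CPM, the lowest reseeded level of the 10 runs, with log2 folds of -4.35 to -2.63. At chr9:37426474-37451106 it went from 12.9 and 17.4 CPM to 2.07 and 2.62 CPM over 24.6 kb. Both of these latter runs showed mature library B above A, by 0.46 and 0.34 on the log2 scale, whereas the run of the first Mb did not (-0.09). The part of this difference between mature libraries in the losses was not tested, but each mature library alone lay far above both reseeded ones. The other 5 runs had 5 or 6 peaks each and median log2 folds of -3.10 to -1.61, and lay at chr9:35246946-35256602, chr9:36658739-36669366, chr9:37529254-37533304, chr9:37551414-37559918 and chr9:54205267-54220201. Those from 37529254 and 37551414 were the strongest in mature cells, with median peaks of 66.0 and 54.2 CPM. After reseeding their median peaks had 20.6 and 19.4 CPM and 10.2 and 10.6 CPM in the reseeded pair.

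The single peaks with the largest losses went from clear peaks to near nothing. At chr9:19068927-19069427 the level was 19.6 and 15.1 CPM in the mature pair and 0.584 and 0.328 CPM in the reseeded pair, a log2 fold of -5.31 with an SE of 0.29 and an adjusted p of 1.09e-17. At chr9:2899934-2900434 it was 26.7 and 30.5 CPM and then 0.759 and 0.902 CPM, a log2 fold of -5.06 (SE 0.19). At chr9:53483548-53484048, the strongest of the 8 in mature cells, it was 37.0 and 36.4 CPM and then 1.34 and 1.31 CPM, a log2 fold of -4.79 (SE 0.15). The reseeded values rest on few reads, 10 and 8, 13 and 22, and 23 and 32 counts in libraries A and B, all above the floor of 3 counts. At each of these sites both mature libraries lay far above both reseeded ones. The size of the largest losses depends on the scaling: under loess offsets these 3 log2 folds were -7.89, -6.49 and -5.31.

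Among the other 5 losses, 2 pairs were close together. The peaks chr9:30345404-30345904 and chr9:30348176-30348676, shortly after the long gap, had 12.5 ± 2.33 and 26.1 ± 1.36 CPM in mature and 0.336 ± 0.185 and 0.769 ± 0.0146 CPM in reseeded cells (mean ± SD, n = 2 per group), with log2 folds of -5.29 and -5.07. The first of them rested most on one library, with a fold of 58.9 without reseeded library A against 39.1 with all libraries. The peaks chr9:36630166-36630666 and chr9:36631512-36632012 had 29.4 ± 1.05 and 18.6 ± 2.44 CPM in mature and 1.12 ± 0.311 and 0.652 ± 0.18 CPM in reseeded cells, and 7 of the 9 other peaks within 50 kb of each were also at least 2-fold lower. At chr9:32119965-32120465 the log2 fold was -5.10 (SE 0.27). Under loess offsets the log2 folds were -8.49 at the peak from 30345404, -6.69 from 30348176, -5.82 from 36630166, -6.94 from 36631512 and -7.51 from 32119965. Around the 8 lost peaks, 51 other peaks lay within 50 kb, counted again where 2 of the 8 were close, of which 23 lost and 6 gained 2-fold or more. Some lost peaks stood alone in their change: near chr9:19068927-19069427, 0 of 11 neighbours were at least 2-fold lower and 2 were higher.

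The largest gains were smaller than the largest losses on this scale, as over all tested peaks, whose log2 folds ran from -7.22 to 5.41. On chromosome 9 the named gains had log2 folds of 3.28 to 3.93. Elsewhere in the genome 94 peaks chosen by the same criteria had a higher fold than the highest on chromosome 9, whereas 25 had a lower fold than its lowest. At chr9:58430468-58430968 the level rose from 3.25 and 4.70 CPM in the mature pair to 59.2 and 58.5 CPM in the reseeded pair, a log2 fold of 3.93 with an SE of 0.13 and an adjusted p of 5.36e-23. At chr9:37218199-37218699, inside the step with the most losses, it rose from 4.87 and 8.42 CPM to 83.0 and 81.0 CPM, a log2 fold of 3.68 (SE 0.12). At chr9:38530329-38530829, in the next step, it rose from 4.29 and 4.86 CPM to 54.7 and 55.0 CPM, a log2 fold of 3.59 (SE 0.12). These 3 peaks were low but present in both mature libraries and strong in both reseeded ones.

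The other 5 gains were at lower levels. At chr9:59103591-59104091, chr9:34765062-34765562, chr9:59594185-59594685 and chr9:40330946-40331446 the means rose from 2.27 ± 0.233, 3.72 ± 1.16, 1.27 ± 0.489 and 2.40 ± 0.274 CPM in mature cells to 25.4 ± 0.54, 37.6 ± 2.07, 12.4 ± 0.788 and 23.1 ± 0.0124 CPM in reseeded cells (mean ± SD, n = 2 per group). At chr9:10524184-10524684 the level was 0.464 and 1.13 CPM, from 4 and 7 counts, in the mature pair and 7.00 and 7.55 CPM in the reseeded pair. Its fold of 9.71 was 6.41 without mature library A and 15.5 without mature library B, and under loess offsets its log2 fold of 0.32 was not called (adjusted p = 0.55). At chr9:59594185-59594685 the log2 fold of 3.35 was 1.41 under loess offsets and still called. Gained peaks had fewer neighbours than lost ones: 22 other peaks lay within 50 kb of the 8, of which 8 gained and 1 lost 2-fold or more, and 3 of the 8 had no other peak within 50 kb.

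**Figure D5:**
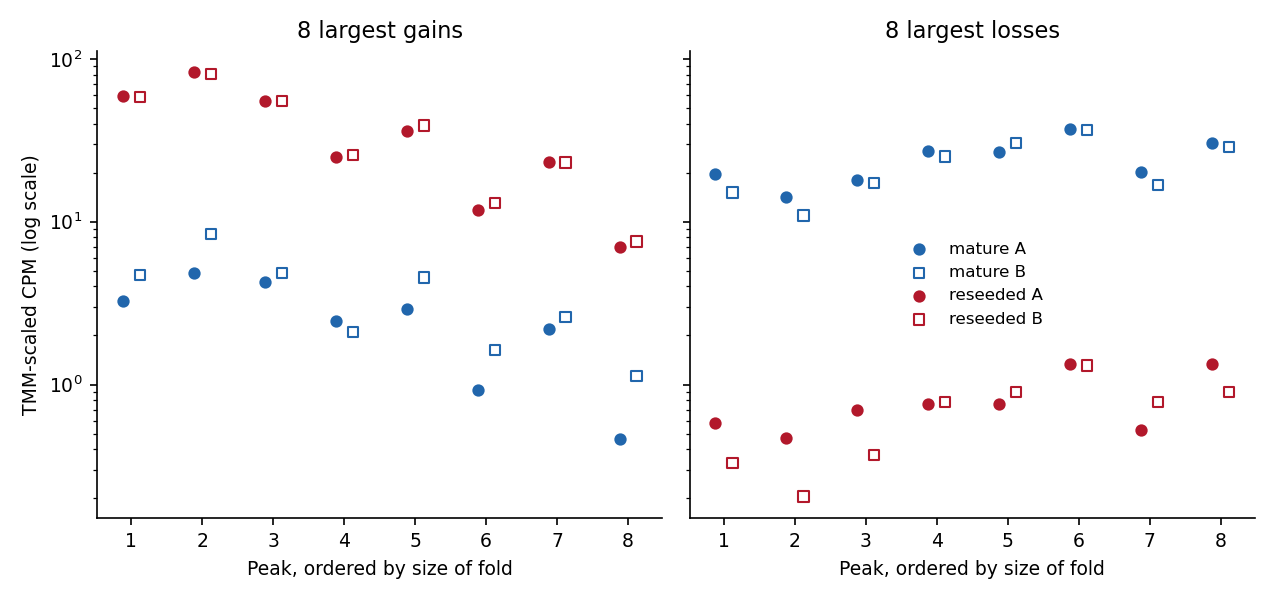
TMM-scaled CPM (vertical axis, log scale) of the 8 peaks with the largest gains (left) and the 8 with the largest losses (right) on chromosome 9, ordered by size of fold, with 1 point per library. Mature points (blue) lie between 0.464 and 8.42 CPM on the left and between 10.9 and 37.0 CPM on the right, and reseeded points (red) lie above them on the left and at or below 1.34 CPM on the right.

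The strongest peaks of the chromosome changed little by comparison. The peak chr9:33136433-33136933 had 264 and 254 CPM in the mature pair and 185 CPM in each reseeded library, a log2 fold of -0.49 with an SE of 0.06 and an adjusted p of 1.66e-08, and chr9:33728378-33728878 had 255 and 244 CPM and then 189 and 188 CPM, a log2 fold of -0.41 (SE 0.06). Both directions turned under loess offsets, to 0.17 and 0.24. In the same Mb, chr9:33277419-33277919 rose from 110 and 102 CPM to 170 and 187 CPM, a log2 fold of 0.75 (SE 0.07). The step from 33 to 34 Mb that holds these 3 peaks summed to 2928 and 2887 CPM in the mature and 2581 and 2705 CPM in the reseeded libraries with 65 peaks, a log2 fold of -0.14 (SE 0.026).

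The remaining 2 of the 5 strongest peaks lay among peaks that changed more. The peak chr9:10355103-10355603, between the runs of lost peaks near 10 Mb, had 231 and 218 CPM in the mature and 126 and 124 CPM in the reseeded libraries, a log2 fold of -0.85 (SE 0.06), while 20 of the 27 other peaks within 50 kb were at least 2-fold lower and 1 higher. Under loess offsets its log2 fold was -0.26. The peak chr9:19870609-19871109 had 166 and 158 CPM in the mature and 167 and 172 CPM in the reseeded libraries, a log2 fold of 0.07 (SE 0.06) that was not called (adjusted p = 0.342), while 8 of its 29 neighbours within 50 kb were at least 2-fold higher and 9 lower. Under loess offsets this fold was 0.65 and passed the threshold.

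The mature libraries differed from each other more at gained than at lost peaks of chromosome 9. The median log2 ratio of mature library B to A was 0.05 over its called peaks, 0.06 over those not called, 0.05 at those at least 2-fold lower and 0.11 at those at least 4-fold lower. At peaks at least 2-fold higher it was 0.26 and at those at least 4-fold higher 0.28, at median mature levels of 4.53 and 3.24 CPM. The number of peaks at least 2-fold higher was 601 without mature library A and 717 without mature library B, and the number at least 2-fold lower 705 and 727, against 664 and 710 with all libraries.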

How the data were processed

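ATAC-seq counts were analysed in 4 libraries of MDCKII cells, 2 mature and 2 reseeded. The authors' deposited table holds raw counts in 59081 peaks of 501 bp, not normalized. Per the submitters' processing notes, Bowtie2, MACS2 and the build CanFam3.1 were used. Their versions and settings, the handling of duplicates, the Tn5 offset and the rule for keeping peaks were not given in the sources used here. Duplicates that were kept would be counted again, so floors cover counting error only. A floor of 3 counts equals 0.342, 0.48, 0.177 and 0.125 CPM in mature A, mature B, reseeded A and reseeded B.

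Chromosomes were read from the sequence accessions (the number less 6582), and positions count from 1. All peaks of the genome passing filterByExpr (59076) were fitted in R 4.3.3 with edgeR 4.0.16 (TMM, quasi-likelihood test, reseeded against mature, no block), with Benjamini-Hochberg adjustment over all of them. Peaks were called at an adjusted p under 0.05, and counts of 2-fold and 4-fold changes are of called peaks. Peak counts were also summed per 1 Mb window with at least 5 peaks (by peak midpoint) and per chromosome, the latter scaled as the peaks. The SE comes from the fold and its F statistic. The fits were tested on simulated counts. There, chromosome totals that had not been changed were also called at small shifts, so chromosome calls are read by size.

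Named on chromosome 9 were the 8 highest and 8 lowest folds (called, counts averaging 50 or more over the libraries, groups apart), the 5 strongest peaks, the 4 highest and 4 lowest called windows, the 3 windows with most and with fewest peaks, and all runs. The members and these lists were chosen with earlier results of these data known. Alternatives were DESeq2 1.42.0 (size factors, Wald test), upper-quartile factors, library size alone, TMM from the other chromosomes, loess offsets on mean log2 CPM, other filters, thresholds and windows, a replicate block and each library left out. Added after the data were seen were thinning to the shallowest library, numbered chromosomes alone, and leaving out the densest window or the runs. With a library left out, the lone library was assumed to vary as the other pair does. Summaries were made with pandas 2.3.3, scipy 1.17.1 and numpy 2.4.6. Plots were drawn with matplotlib 3.10.9.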

Additional observations from a re-analysis of the deposited data

How the results depend on the processing

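Of 69 alternatives for the counts, the median, the chromosome total, the called windows and the densest class, 59 kept direction and stayed within 1.5 times the count, within the spread or past the same threshold. The median log2 fold of chromosome 9 stayed negative throughout: -0.241 by upper-quartile factors and by library size alone, -0.294 with TMM factors of the other chromosomes, -0.266 under loess offsets, -0.31 when thinned, and -0.294 to -0.283 with a library left out. Windows of 500 kb gave 107 calls and windows of 2 Mb 25, as more or fewer windows were tested. The share of lower peaks in the densest class was 18.5% at 1 Mb either side, and the cause was not tested. The 31 named peaks and windows kept their side of the threshold, and if called their direction, in 419 of 423 alternatives. A change of sign in a fold that was not called was not counted. The window from 27 Mb, at -0.04, had 0.08 under library size alone and 0.03 with the factors of the fit to single peaks. The other 4 alternatives were loess offsets, with 0.17 and 0.24 at the strong peaks from 33136433 and 33728378. Those for the peaks from 10524184 and 19870609 are given above. Loess offsets also moved the size of other named folds by over 1.5 times, as given above. With the replicate block 658 peaks were at least 2-fold higher, 709 lower and 48 windows called. A minus B correlated between the groups at 0.0314 across peaks. With 2 libraries a group, this value cannot decide whether the library letters are paired. Depth limits small folds at weak peaks, as mature totals were lowest.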
